A study of Mus musculus with 158 samples.

Results

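The 42 kinesin genes of the mouse RNA count table, out of 21956 gene rows, were described across 149 single brain cells in 6 groups. The members were all rows whose symbol was Kif followed by a number, plus the light chain genes Klc1 to Klc4. They comprised 12 division kinesins, 10 axonal transport kinesins and light chains, 9 other transport kinesins and 11 remaining members. All cells were mouse, untreated and collected 1 at a time by patch pipette, and their polyA RNA was carried through 3 rounds of antisense RNA amplification before sequencing. From primary cultures came 3 groups, namely 86 astrocytes of the cortex, 13 neurons of the cortex and 8 neurons of the hippocampus. From acute slices came 22 neurons of the cortex, 15 of CA1 and 5 of CA3. CA1 and CA3 are hippocampal fields. Of the astrocytes, 70 were taken after 12 days in culture, 3 after 7, 5 after 14 and 8 after 15. Of the cultured cortical neurons, 3 were taken after 6 days, 3 after 10, 4 after 13 and 3 after 15, and all hippocampal ones after 15. The background strain was C57/BL6 for the hippocampal cultures and the astrocytes of 7 days, and C57/BL6/N for all others. The labels used here give no age for the slice animals.

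Kinesins are motor proteins that use ATP to move along microtubules or to shorten them. In dividing cells a set of them builds the spindle, moves chromosomes and closes the cell at cytokinesis, and these genes are switched on mainly in the later part of the cell cycle. Neurons no longer divide, and they rely on another set, chiefly the kinesin-1 (Kif5 and Klc), kinesin-2 (Kif3) and kinesin-3 (Kif1) motors, to carry vesicles, mitochondria and proteins from the cell body along axons and dendrites. Dynein with its cofactor dynactin carries cargo the opposite way.

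Libraries held 535369 to 38680739 counts, with a median of 10735985, and the median total per cell ranged from 4125369 in CA1 to 15369172 in astrocytes. For the level of a gene in a group, the counts of its cells were added up and divided by the group's total, in counts per 1000000 (CPM). A member was called detected in a cell with at least 5 counts after thinning to 1000000 counts. 1 CA1 cell was shallower than that and left 14 for detection. Intervals are 95% Poisson for CPM and 95% Clopper-Pearson for shares of cells, a count of 0 in n cells is given an upper limit of 3 in n, and all of these cover counting error only, since amplified reads that carry no molecular identifier can stem from the same molecule. As the labels name no animal or culture of origin, each group was 1 sample, so differences had no replicate check and were not tested. The median number of the 15 neuron markers detected per cell was 2 in astrocytes, 10 and 14.5 in cultured cortical and hippocampal neurons, and 8, 8.5 and 10 in cortical, CA1 and CA3 slice neurons. For the 15 astrocyte markers the medians were 8, 5, 2.5, 2.5, 2 and 2 in the same order. The markers go against the label in 5 cells. In 3 of the 13 cultured cortical neurons and 2 of the 22 cortical slice neurons, more astrocyte than neuron markers were detected. The main results that rest on them are also given without them. The median number of genes detected per cell was 4921 in astrocytes, 4447 and 7507 in cultured cortical and hippocampal neurons, and 1808, 1894.5 and 2150 in cortical, CA1 and CA3 slice neurons.

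Axonal transport kinesins supplied most kinesin counts in every group, and division kinesins supplied more in astrocytes than in neurons as a rule. Of all kinesin counts, the division members took 8.75% in astrocytes (298 CPM summed), 2.74% in cultured cortical neurons (111 CPM), 0.253% in cultured hippocampal neurons (12.1 CPM) and 0.0397% in cortical slice neurons (1.69 CPM). CA1 neurons, at 5.85% (229 CPM), and CA3 neurons, at 4.76% (69.9 CPM), owed these shares to 1 gene each, in 1 and 2 cells. Without the 3 cultured cortical neurons richer in astrocyte markers, the division members took 0.282% of the kinesin counts of that group (11.8 CPM), close to the hippocampal cultures, and the axonal transport members 87.5%. The axonal transport members took 77.9% in astrocytes, 85.1% and 89.4% in cultured cortical and hippocampal neurons, and 89.4%, 66.1% and 75.3% in cortical, CA1 and CA3 slice neurons. At least 1 cell detected 38 of the 42 members among astrocytes, 30 among cultured cortical, 27 among cultured hippocampal, 21 among cortical slice, 20 among CA1 and 14 among CA3 neurons. These numbers also follow the unequal numbers of cells. Levels in slices often came from 1 cell. Among members of at least 10 CPM, 1 cell held 50% or more of the counts for 8 of 11 in CA3, 10 of 15 in CA1, 7 of 16 in cortical slices, 6 of 18 and 2 of 16 in cultured cortical and hippocampal neurons and 0 of 22 in astrocytes. Kif2b, Kif12 and Kif19a were detected in no cell.

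**Figure D1:**
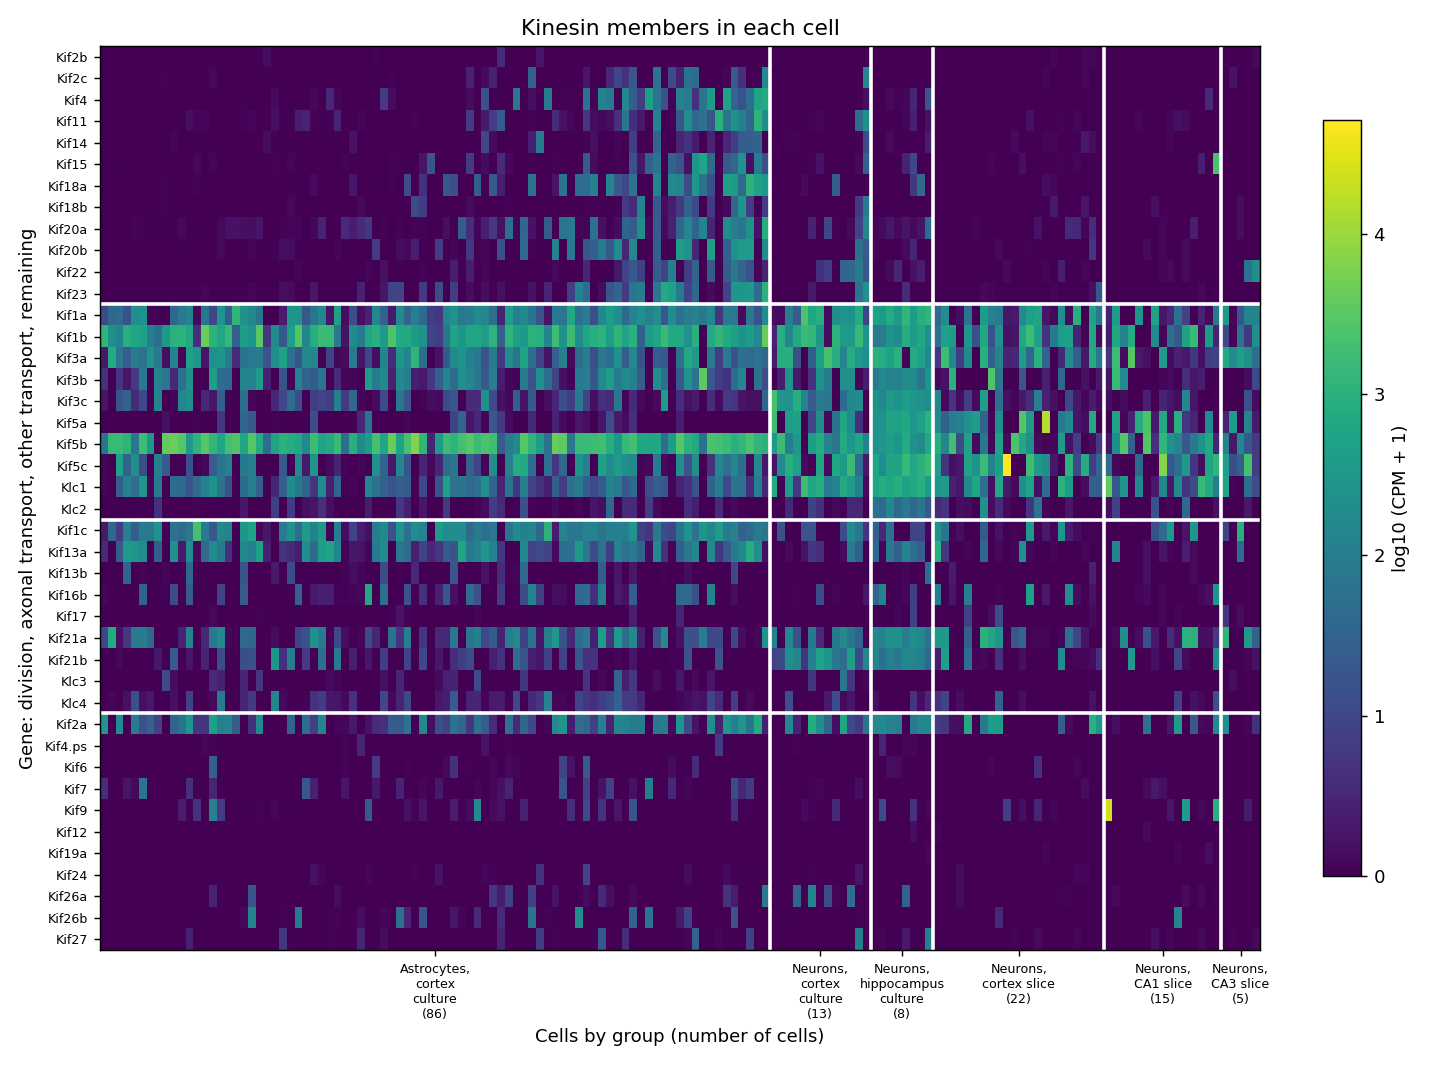
Colour gives log10 (CPM + 1) of each of the 42 members (rows, grouped by role) in each of the 149 cells (columns, grouped by label and sorted within a group by their summed division kinesin level). The division rows are filled in only some of the 86 astrocytes, in a few cultured cortical neurons and for single genes in a few other cells. Most axonal transport rows are filled in many cells of every group, with gaps such as Klc2 in CA3.

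The division kinesins were found in part of the astrocytes, together and at high levels. Kif18a, which dampens chromosome movements at the metaphase plate, had 54.1 CPM and was detected in 27 of 86 astrocytes (31.4%, 21.8 to 42.3%). Kif23, the motor of the centralspindlin complex needed for cytokinesis, had 51.1 CPM and was detected in 25. Kif11, the plus-end motor that pushes spindle poles apart, had 50.2 CPM and was detected in 17. Kif4, a chromosome-bound motor that shapes chromosomes and the central spindle, had 43.4 CPM and was detected in 22. Each of these 4 had a median at or near 0 over the 86 astrocytes (at most 0.0878 CPM) and a maximum between 730 and 1174 CPM, so that the group level came from a minority of cells. No astrocyte held more than 39.1% of the counts of any of them.

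The other division members ran lower in astrocytes. Kif20a and Kif20b, mitotic kinesins of the kinesin-6 family, had 31.7 CPM in 20 detecting cells and 32.1 CPM in 22. Of the exonic bases of Kif20a, 29.3% overlap the protein-coding gene Cdc23 on the opposite strand. As the strand setting of the counting is not given, the values of Kif20a in all groups are uncertain. Kif15, a spindle motor that can act beside Kif11, had 16.2 CPM and was detected in 16. Kif18b and Kif2c, which act on the growing and shrinking ends of spindle microtubules, had 7.45 and 5.25 CPM and were detected in 11 and 9 astrocytes. Kif22, a chromosome-arm motor, had 4.85 CPM (12 cells) and Kif14, which acts in cytokinesis, had 2.08 CPM (7 cells). These 7 members were thus each detected in fewer than 23 of the 86 astrocytes.

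Counted per cell, division kinesins formed a long tail among astrocytes. Of the 86, 36 detected none of the 12, 15 detected 1, 12 detected 2 and 23 detected 3 or more. At the top, 13 cells detected at least 6, and 1 cell detected 11. The 20 spindle and cytokinesis partners, such as Mki67 and Top2a, ran with them. All 13 astrocytes with at least 6 division kinesins also detected at least 10 of the partners, out of 19 astrocytes that did so, and 14 astrocytes detected none of either list. Spearman's rho over the 86 astrocytes was 0.76 between the numbers of division kinesins and partners, 0.355 between division kinesins and all genes detected, and 0.14 between division and axonal transport kinesins. These correlations are descriptions over cells that share cultures and differ in library quality. The number of axonal transport kinesins, by contrast, ran with the number of genes detected (rho = 0.818).

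Culture age and division kinesins did not run in 1 direction. The 3 astrocytes of 7 days detected 4, 6 and 8 division kinesins. The 70 of 12 days had a median of 1, with 31 at 0 and a maximum of 11. The 5 of 14 days detected 0 or 1, and the 8 of 15 days had a median of 4 (0 to 8). The astrocytes of 7 days also carried another strain label, so age and strain cannot be told apart there. The fibroblast and meningeal markers of these 3 cells, 2 to 7 of 10 detected and 904 to 9868 CPM summed, lay within the range of all 86 astrocytes (37.6 to 17141 CPM). Their median was 8585 CPM against 1177 CPM over all astrocytes, so these markers also ran high in them, and their part in the result was not tested.

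**Figure D2:**
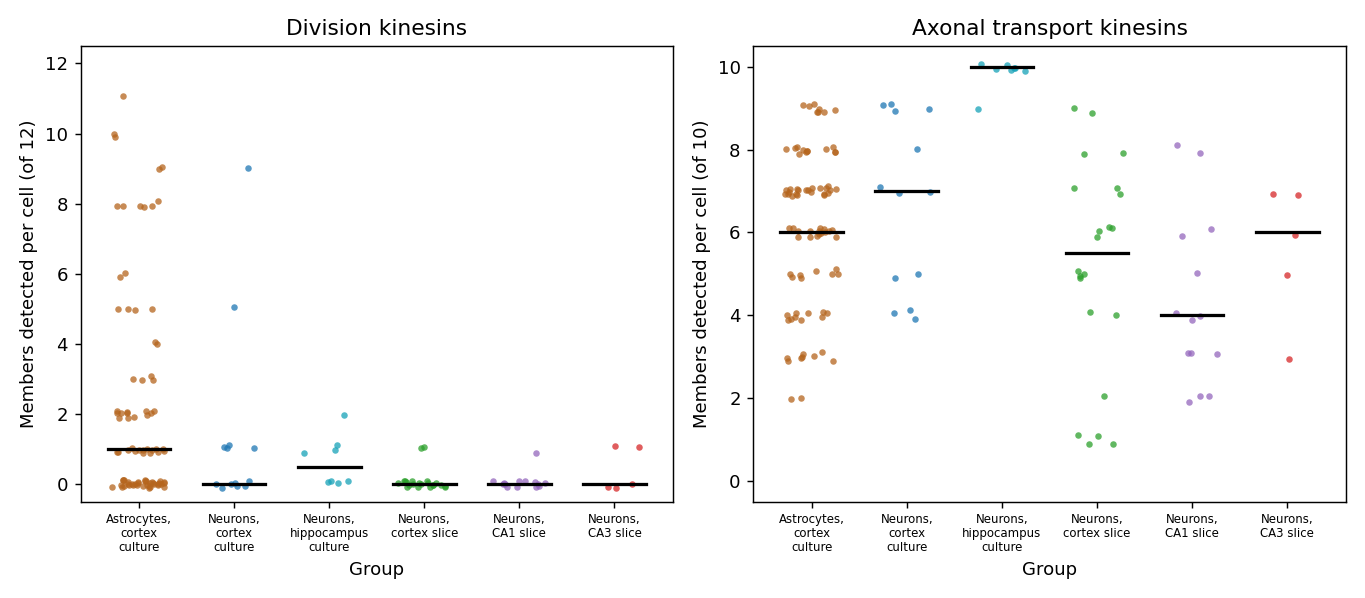
Each point is a cell, and the vertical axes give the number of the 12 division kinesins (left) and of the 10 axonal transport kinesins (right) detected at 1000000 counts, with a bar at the median of each of the 6 groups. Points were moved slightly at random so that cells with equal numbers stay visible. Astrocytes spread from 0 to 11 division kinesins, 20 of 22 cortical slice neurons sit at 0, and the 8 cultured hippocampal neurons detect 9 or 10 axonal transport members.

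The promoters of the division members are shown because the genes moved together over the astrocytes. RefSeq promoters (GRCm38.p6, from 250 bases before to 50 after the annotated start) were matched by symbol for 34 of the 42 members. They were searched on both strands for TTTGAA, the core of the cell cycle genes homology region (CHR) that binds the DREAM and MuvB complexes in cell-cycle genes, and for CCAAT, the box bound by NF-Y. The letters of neither motif overlap those of the other. The 4 promoters below hold both, capitals marking every match on either strand, and Kif11 is at chr19:37376132-37376431, plus strand, Kif22 at chr7:127042371-127042670, minus strand, Kif23 at chr9:61946750-61947049, minus strand and Kif4 at chrX:100625815-100626114, plus strand.
Kif11: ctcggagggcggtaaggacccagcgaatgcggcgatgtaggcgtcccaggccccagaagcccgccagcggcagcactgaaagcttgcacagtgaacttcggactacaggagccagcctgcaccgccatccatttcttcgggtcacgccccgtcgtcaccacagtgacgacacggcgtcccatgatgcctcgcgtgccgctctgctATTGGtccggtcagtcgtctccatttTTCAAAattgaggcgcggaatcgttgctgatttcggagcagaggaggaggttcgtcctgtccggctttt
Kif22: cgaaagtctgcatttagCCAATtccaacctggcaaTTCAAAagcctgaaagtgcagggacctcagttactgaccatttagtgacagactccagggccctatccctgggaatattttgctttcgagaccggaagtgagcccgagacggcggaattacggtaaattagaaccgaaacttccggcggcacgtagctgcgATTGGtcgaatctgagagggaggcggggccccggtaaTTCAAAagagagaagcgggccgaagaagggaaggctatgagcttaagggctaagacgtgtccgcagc
Kif23: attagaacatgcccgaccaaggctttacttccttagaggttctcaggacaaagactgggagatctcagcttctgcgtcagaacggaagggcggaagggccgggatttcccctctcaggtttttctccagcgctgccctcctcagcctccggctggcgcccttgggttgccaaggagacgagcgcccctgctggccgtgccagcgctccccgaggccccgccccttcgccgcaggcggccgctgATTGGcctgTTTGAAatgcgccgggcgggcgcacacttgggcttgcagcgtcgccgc
Kif4: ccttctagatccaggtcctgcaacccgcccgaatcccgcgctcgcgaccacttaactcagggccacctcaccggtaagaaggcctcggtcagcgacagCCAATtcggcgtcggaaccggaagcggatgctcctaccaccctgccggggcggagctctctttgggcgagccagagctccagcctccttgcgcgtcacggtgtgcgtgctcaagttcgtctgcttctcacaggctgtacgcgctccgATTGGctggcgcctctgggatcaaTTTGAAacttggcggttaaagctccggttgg

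For contrast, the promoter of the division member Kif18a (chr2:109280488-109280787, plus strand) and that of the neuronal transport motor Kif5c (chr2:49619036-49619335, plus strand) hold neither motif and therefore no capitals.
Kif18a: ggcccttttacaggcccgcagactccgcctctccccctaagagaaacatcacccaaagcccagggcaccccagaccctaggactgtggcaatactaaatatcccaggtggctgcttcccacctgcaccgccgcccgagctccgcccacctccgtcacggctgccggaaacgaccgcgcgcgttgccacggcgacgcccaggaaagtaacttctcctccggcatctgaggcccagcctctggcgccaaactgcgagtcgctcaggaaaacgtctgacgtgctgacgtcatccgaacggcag
Kif5c: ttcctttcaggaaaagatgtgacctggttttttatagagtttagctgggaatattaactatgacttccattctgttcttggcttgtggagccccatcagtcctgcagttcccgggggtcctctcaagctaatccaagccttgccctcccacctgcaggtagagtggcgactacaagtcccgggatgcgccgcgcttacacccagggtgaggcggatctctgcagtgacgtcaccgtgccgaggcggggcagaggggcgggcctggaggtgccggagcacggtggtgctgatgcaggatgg

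The CHR core was present in 9 of 11 division promoters (81.8%), against 17.9% of all 32851 promoters of the same length. The CCAAT box was present in 7 (63.6%) against 37.4%, and both in 6 (54.5%) against 6.95%. Among 9 promoters of 7 axonal transport genes, 1 (11.1%) held the CHR core, 4 (44.4%) held the CCAAT box and 0 held both. Of the 7 other transport promoters, 0 held the CHR core and 2 held the CCAAT box. Of 11 promoters of the remaining members, 2 (18.2%) held the CHR core, 4 (36.4%) the CCAAT box and 2 both. The CHR core lay near the start in Kif11 (starting 19 bases before it), Kif22 (17 before) and Kif4 (20 after). Within 30 bases of the start, a window chosen after the positions had been seen, 7 of 11 division promoters (63.6%) held it, as did 1 of 11 promoters of remaining members (9.09%), against 3.14% of all promoters. A match is a description of letters, and no binding was measured here.

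In cultured cortical neurons, most counts of division kinesins came from the cells with more astrocyte than neuron markers detected. The 13 cells had a median of 0 division kinesins detected, 7 had none, and a single cell of 15 days detected 9 of 12. That cell also detected 15 of the 20 spindle partners, 12 of 15 astrocyte markers, 10 of 15 neuron markers, 6 of 10 microglia markers and 8 of 10 oligodendrocyte lineage markers. It held 77.3% of the group's 23147 division kinesin counts, and the 3 cells richer in astrocyte markers together held 91.5%. A cell of 13 days detected 5 division kinesins and 17 spindle partners. By gene, Kif23 had 25.6 CPM in the group (2 of 13 cells detecting), Kif11 23.8 CPM (2 cells), Kif20a 15.4 CPM (3 cells) and Kif2c 13.1 CPM (1 cell). Without those 3 cells, Kif23 had 0.06 CPM, Kif11 0.03 CPM, Kif20a 0.81 CPM and Kif2c no count. Kif22 had 13.7 CPM in 4 of 13 cells, with 59.5% of its counts in the 3 cells, and 6.99 CPM in 1 of 10 cells without them. Kif18a was the exception, as 630 of its 631 counts lay outside the 3 cells, with 99.7% of the 631 in 1 neuron. Kif4, at 43.4 CPM in astrocytes, had 10 counts in all 13 cells (0.0478 CPM) and was detected in 0 of 13, which allows a share of up to 23.1%. Its nearly identical processed pseudogene Kif4.ps makes both values uncertain, as reads from the copies could be split by the counting.

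Cultured hippocampal neurons had almost no division kinesin signal. Their 8 cells detected 0 to 2 of the 12, with a median of 0.5. Kif18a was highest at 5.13 CPM (87.6% in 1 cell), followed by Kif20a at 2.85 CPM (84.5% in 1 cell). Their astrocyte markers were low (129 to 764 CPM summed, with Gja1 and Gjb6 at 0), against 5.68 to 6857 CPM in cultured cortical neurons, where Gjb6 was at 0.

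Slice neurons detected a division kinesin in only a few cells. In cortical slices 20 of 22 cells detected none and 2 cells detected 1. Kif15 reached 229 CPM in CA1 neurons (225.3 to 232), and 99.97% of its counts fell in 1 cell at 2250 CPM, with 14.3 CPM at most for the summed spindle partners in any CA1 cell. Kif22 reached 69.5 CPM in CA3 neurons (66.5 to 72.7), with 210 CPM in 1 cell, 65.7 CPM in another and 0 in the other 3. Neither gene had another division kinesin detected beside it in those cells, since no cell of CA1 or CA3 detected more than 1. Kif11 and Kif18a were detected in no slice neuron, and Kif23 in 1, from cortex. For the 22 cortical slice cells a count of 0 allows a share of up to 13.6%.

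Among the axonal transport members, kinesin-1 heavy chains gave the sharpest contrast between astrocytes and neurons. Kif5b, the heavy chain found in most tissues, had 1367 CPM in astrocytes (1365 to 1369) and was detected in 84 of 86. It had 420 CPM in cultured cortical neurons (12 of 13), 338 in cultured hippocampal neurons (8 of 8), 432 in cortical slice (13 of 22), 546 in CA1 (10 of 14) and 28.8 CPM in CA3 neurons (4 of 5). The CA3 cells had 18.3, 0.992, 114.5, 5.83 and 157 CPM. Over the 8 cultured hippocampal neurons Kif5b ran from 163 to 800 CPM with a median of 295, and over the 86 astrocytes from 0.0858 to 6245 CPM with a median of 1135, so the groups overlap.

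Kif5a, the heavy chain largely restricted to neurons, went the other way. It had 2.28 CPM in astrocytes, where 53 of 86 cells had no count and 11 detected it (12.8%, 6.56 to 21.7%). It had 331.7 CPM in cultured cortical (8 of 13 cells), 446 in cultured hippocampal (8 of 8), 627 in cortical slice (14 of 22), 419 in CA1 (7 of 14) and 172 CPM in CA3 neurons (2 of 5). The highest astrocyte had 67.2 CPM and the lowest cultured hippocampal neuron 235 CPM, so these 2 groups did not overlap. In the other 4 neuron groups the lowest cells were at 0. In cortical slices 70.9% of the Kif5a counts came from 1 cell at 15385 CPM.

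Kif5c, also enriched in neurons, had 103 CPM in astrocytes (47 of 86 cells), 483 and 684 CPM in cultured cortical (8 of 13) and hippocampal neurons (8 of 8), and 1446, 696 and 443 CPM in cortical, CA1 and CA3 slice neurons (15 of 22, 8 of 14 and 5 of 5). Single cells held 71.5%, 65.2% and 87.0% of the counts in the 3 slice groups, and the 5 CA3 cells had 2152, 12.6, 460, 5.96 and 27.1 CPM. The order of the slice levels therefore rests on 1 cell in each group.

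Within single cells, Kif5b took most heavy chain counts in most astrocytes and in no cultured hippocampal neuron, and the other neuron groups were mixed. Of the Kif5a, Kif5b and Kif5c counts of a cell, Kif5b took a median of 98.6% over 85 astrocytes with at least 10 such counts, and more than 50% in 79 of them. Its median share was 46.1% over 12 cultured cortical neurons, 23.04% over the 8 cultured hippocampal neurons (9.52 to 39.9%), 8.97% over 21 cortical slice, 37.99% over 14 CA1 and 19.9% over 5 CA3 neurons. Every cultured hippocampal neuron carried all 3, with 21.6 to 39.2% Kif5a and 27.1 to 61.6% Kif5c. Kif5b exceeded 50% in 5 of 12 cultured cortical, 5 of 21 cortical slice, 6 of 14 CA1 and 1 of 5 CA3 neurons. In the same order, the median share of Kif5a was 8.6, 13.7, 4.3 and 6.1%. That of Kif5c was 15.2, 38.4, 4.7 and 45.9%. In slice neurons single cells lay near 0 or near 100% for each gene. The cells of lower count and fewer detected genes were in the slice groups, and the part of this in the spread was not tested. These shares are of counts and not corrected for length. Per kilobase of annotated exon the group share of Kif5b was 92.0% in astrocytes and 20.99% in cultured hippocampal neurons.

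**Figure D3:**
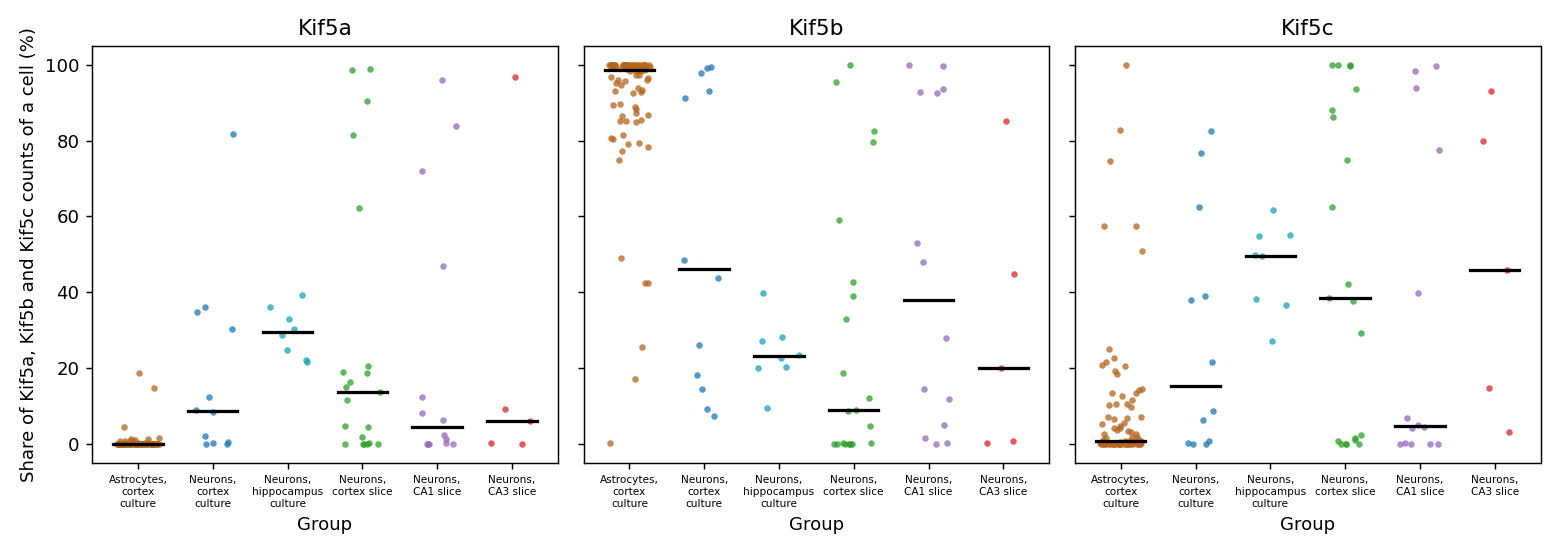
Each point is a cell with at least 10 counts on the kinesin-1 heavy chain genes, and the vertical axis gives the percent of these counts on Kif5a, Kif5b or Kif5c, with a bar at the median of each group. Kif5b has a median of 98.6% in astrocytes, the 8 cultured hippocampal neurons stay between 9.52 and 39.9%, and slice neurons spread over the whole axis.

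The kinesin light chains, which link the heavy chains to cargo, differed from each other. Klc1 had 58.2 CPM in astrocytes (63 of 86 cells), 418 and 752 CPM in cultured cortical (10 of 13) and hippocampal neurons (8 of 8), and 264.4, 390 and 70.8 CPM in cortical, CA1 and CA3 slice neurons (13 of 22, 11 of 14 and 3 of 5). Klc2 stood out for cultured hippocampal neurons, at 60.5 CPM (58.9 to 62.2) with detection in 8 of 8. It had 1.37 CPM in cultured cortical neurons (1 of 13), 1.16 in astrocytes (7 of 86), 11.5 in cortical slice (4 of 22), 2.16 in CA1 (3 of 14) and 0.182 CPM in CA3 neurons (0 of 5). The lowest hippocampal culture neuron, at 18.0 CPM, was above the highest cultured cortical neuron, at 7.42 CPM. Klc2 shares 10.6% of its exonic bases with other annotated genes, and the strand setting of the counting is not given in the sources used here.

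Kif3a, Kif3b and Kif3c form the heterodimeric motor of kinesin-2, in which Kif3a pairs with either of the others. Kif3a had 122.8 CPM in astrocytes (69 of 86), 581 and 724 CPM in cultured cortical (11 of 13) and hippocampal neurons (7 of 8), and 274, 138 and 226 CPM in cortical, CA1 and CA3 slice neurons (15 of 22, 4 of 14 and 5 of 5). The 5 CA3 cells had 207, 183, 703, 50.9 and 448 CPM, making it the transport member of most even level among them. Kif3c was higher in both cultured neuron groups, at 258 CPM (11 of 13) and 269.5 CPM (8 of 8), than in astrocytes (24.7 CPM, 34 of 86) or in cortical, CA1 and CA3 slice neurons (31.5, 5.70 and 2.62 CPM, 5 of 22, 1 of 14 and 1 of 5). A single cell held 52.2% of the Kif3c counts of cultured cortical neurons. Of the exonic bases of Kif3c, 43.3% overlap other genes, all of them antisense genes on the opposite strand. Kif3b ranged from 2.99 CPM in CA3 to 182 CPM in cortical slice neurons, where 63.6% came from 1 cell, and was detected in 58 of 86 astrocytes.

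The kinesin-3 motors Kif1a, a fast carrier of synaptic vesicle precursors, and Kif1b, a carrier of mitochondria and vesicles, split in direction. Kif1a had 120 CPM in astrocytes (70 of 86), 300 and 590 CPM in cultured cortical (10 of 13) and hippocampal neurons (8 of 8), and 181, 99.4 and 99.7 CPM in cortical, CA1 and CA3 slice neurons. Kif1b was highest in astrocytes, at 751 CPM (83 of 86), followed by 517 CPM in cultured cortical (11 of 13), 354 in cortical slice (16 of 22), 288.8 in cultured hippocampal (8 of 8), 203 in CA1 (8 of 14) and 60.8 CPM in CA3 neurons (3 of 5). A single cell held 89.8% of the CA3 counts of Kif1b and 53.96% of the CA1 counts of Kif1a. Per kilobase of annotated exon, the leading member was Kif5b in astrocytes (171 CPM per kb), Kif3a in both cultured neuron groups (162 and 202) and in CA3 (62.98), Kif5c in cortical slices (203) and Kif9 in CA1 (197). These lengths, here and above, pool all annotated exons of a gene, and whether reads spread evenly over them was not tested.

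Per cell, the 10 axonal transport members were most complete in the hippocampal cultures. Their 8 neurons detected 9 or 10, against medians of 7 in cultured cortical neurons (4 to 9), 6 in astrocytes (2 to 9), 5.5 in cortical slice (1 to 9), 4 in CA1 (2 to 8) and 6 in CA3 neurons (3 to 7). In cortical slices the number ran with the genes detected (Spearman's rho = 0.935 over 22 cells) and with the neuron markers detected (0.859). The hippocampal cultures also had the most genes detected, and the part of this in their count was not tested.

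The 8 cultured hippocampal neurons fell in a pattern by title letter that the labels do not explain. The 2 libraries whose titles end in D had 1182 and 1266 CPM of Kif1a, against 332.4 to 888 CPM in the other 6. They were also above the other 6 for Kif5a (627 and 1028 against 235 to 551 CPM), Kif5b (686 and 800 against 163 to 416), Kif5c (1417 and 1678 against 197 to 1053) and Kif3b (184 and 307.7 against 65.4 to 170). Kif13b had 0.161 and 50.1 CPM against at most 0.0744, where 0.161 and 0.0744 CPM lie near 0 and give no order. The D libraries lay below the other 6 for Kif3a (0.161 and 153 against 526.1 to 1037 CPM), Klc1 (372 and 525 against 604 to 912) and Kif21a (60.6 and 103 against 125 to 256.4). Both have a counterpart whose title differs only in ending in S, and the labels do not say whether a shared stem marks 1 cell or culture, so the 8 libraries were counted as 8 cells. Against its counterpart each had more Kif1a (1266 against 332.4 CPM and 1182 against 543 CPM) and less Kif3a (0.161 against 1012 CPM and 153 against 1037 CPM). The other transport members examined overlapped between the D libraries and the rest, namely Kif1b, Kif1c, Kif3c, Kif13a, Kif16b, Kif17, Kif21b, Klc2, Klc3 and Klc4. The letter was noticed in the values, the genes were picked for not overlapping, and 2 cells give no measure of their spread. How many of all genes fail to overlap was not computed, so the pattern cannot be called particular to kinesins.

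Among the other transport members, Kif21b, a neuronal motor that also slows microtubule growth, was the most regular. All 13 cultured cortical neurons detected it, from 4.06 to 513 CPM with a group level of 181 CPM, and so did all 8 cultured hippocampal neurons, at 37.6 to 155 CPM and 96.9 CPM. Astrocytes had 10.9 CPM (22 of 86), and cortical, CA1 and CA3 slice neurons had 31.1, 24.9 and 0.219 CPM (4 of 22, 2 of 14 and 0 of 5, the last of which allows up to 60%). Its relative Kif21a had 63.7 CPM in astrocytes, 76.8 and 185 CPM in cultured cortical and hippocampal neurons, and 119.04, 93.2 and 198 CPM in cortical, CA1 and CA3 slice neurons, with 65.5% of the CA3 counts in 1 cell.

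Kif1c and Kif13a, vesicle carriers of the kinesin-3 family, had their highest group level in astrocytes. Kif1c had 150 CPM in astrocytes (73 of 86), against 17.8 and 12.0 CPM in cultured cortical and hippocampal neurons (6 of 13 and 4 of 8). Cortical, CA1 and CA3 slice neurons had 47.9, 43.6 and 66.4 CPM, with 65.2% and 98.7% of the CA1 and CA3 counts in 1 cell each. Kif13a had 104 CPM in astrocytes (60 of 86), against 7.64 CPM in cultured cortical (3 of 13) and 38.6 CPM in cultured hippocampal neurons (6 of 8). Kif16b, a carrier of early endosomes, ranged from 0 in CA3 to 55.3 CPM in cortical slices and was detected in no more than 23 astrocytes, 4 cortical slice neurons and 3 hippocampal culture neurons. Kif13b, Kif17, Klc3 and Klc4 stayed under 10 CPM in every group. The highest of them was Klc3 at 9.62 CPM in cultured cortical neurons (2 of 13), a value made uncertain by the 28.1% of its exonic bases that overlap other genes.

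The remaining members were low apart from Kif2a and Kif9. Kif2a, which shortens microtubules and trims axon branches, had 77.04 CPM in astrocytes (55 of 86), 176 and 122.4 CPM in cultured cortical (7 of 13) and hippocampal neurons (7 of 8), and 152, 45.3 and 23.3 CPM in cortical, CA1 and CA3 slice neurons, with 95.2% of the CA3 counts in 1 cell. Kif9, known from motile cilia, had 847 CPM in CA1, the highest CA1 level of any member. Its counts came from 3 detecting cells, at 23993, 909 and 378 CPM, and 87.6% from the first. All other groups had at most 6.23 CPM of Kif9. Kif26b had 10.2 CPM in astrocytes (10 of 86) and 0 or 4 counts in the cultured hippocampal and cortical neurons.

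**Figure D4:**
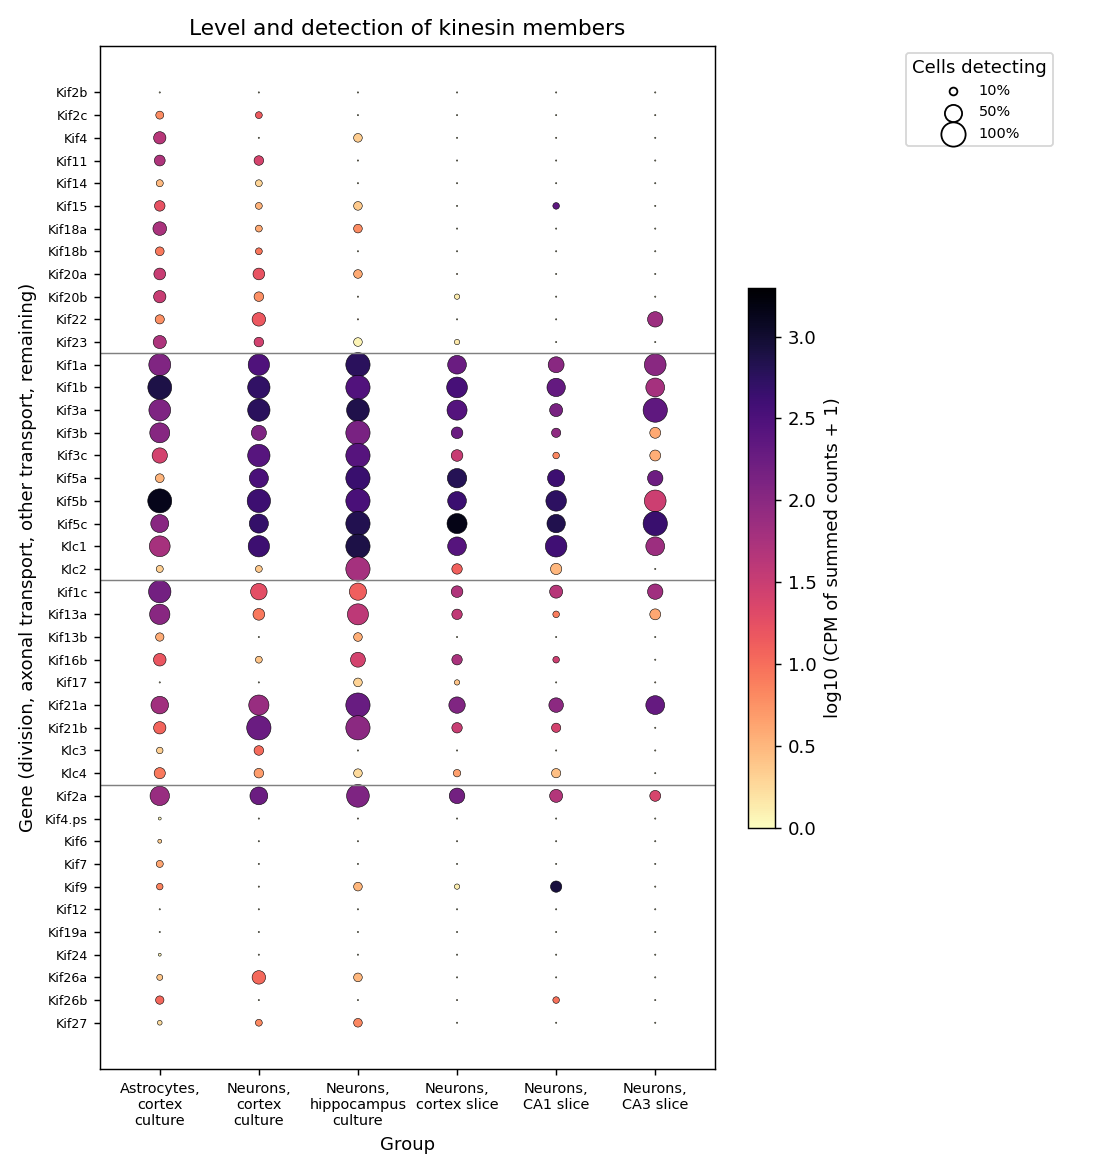
For each of the 42 members (rows, by role) and 6 groups (columns), the area of the circle gives the percent of cells that detected it and the colour the log10 of its summed CPM plus 1. Circles are as a rule larger in the axonal transport rows, but small for some, such as Kif5a in astrocytes and Klc2 in all groups but the hippocampal cultures. Circles in the division rows are smaller, lie mostly in the 3 cultured groups and are rare in slice neurons. Small dark circles such as Kif15 and Kif9 in CA1 mark levels that come from few cells.

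For the comparison of astrocytes with neurons of the same kind of culture, 39 of 42 members were measured, meaning at least 10 counts over both groups and a count in at least 3 cells. At least 2-fold higher in astrocytes were 5 of 11 division kinesins, against 29.8% of all 17473 genes measured, and 2 were at least 2-fold higher in neurons, against 19.9% (49.7% in either direction). The largest log2 ratios (CPM + 1) in the division list were 5.40 for Kif4, 3.78 for Kif18a, 2.51 for Kif20b and 2.34 for Kif15, and Kif22 was lower at -1.33. Without the 3 neurons richer in astrocyte markers, 10 division kinesins were at least 2-fold higher in astrocytes and 0 in neurons. The same counts were 10 and 1 without the highest cell of the list. With cells of 15 days only they were 4 and 7, and there 2 of the 3 neurons were among those richer in astrocyte markers. Shares of all genes were not computed for other choices of cells, here and below, so these counts cannot be set beside such shares. Of the 20 spindle partners, 12 were at least 2-fold higher in astrocytes and 0 in neurons (median log2 1.502, against 0.08 for all genes), and 19 and 0 without those 3 neurons. Beside this, 7 of 9 fibroblast and meningeal markers were also higher in astrocytes, and their part in the result was not tested.

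The axonal transport members went the other way, with 6 of 10 at least 2-fold higher in cultured cortical neurons, 1 higher in astrocytes and a median log2 ratio of -1.76. The ratios were -6.66 for Kif5a, -3.33 for Kif3c, -2.83 for Klc1, -2.23 for Kif3a and -2.21 for Kif5c, and 1.70 for Kif5b. Of the 9 other transport members, 4 were higher in astrocytes and 2 in neurons. Kif13a (3.60), Kif1c (3.01) and Kif16b (2.59) stood on the astrocyte side and Kif21b (-3.93) on the neuron side. Among 9 remaining members 4 were higher in astrocytes, Kif26b by 3.46, and 3 in neurons. Of 19 dynein and dynactin genes 6 were higher in neurons and 1 in astrocytes, with Dync1i1, an intermediate chain, at 1.97 against 325 CPM. Of 16 adaptors that link kinesins to cargo, 9 were higher in neurons and 0 in astrocytes. All 15 neuron markers were higher in neurons. The astrocyte markers separated the groups less well, with 6 of 14 higher in astrocytes, 3 higher in neurons and a median log2 ratio of 0.62. Of 10 oligodendrocyte lineage markers 7 were higher in neurons and 1 in astrocytes.

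Cortical neurons from slices were compared with those from culture. Of 10 division kinesins measured, 9 were at least 2-fold higher in culture and 0 in slices, against 37% and 24.7% of 13741 genes (61.7% in either direction). The ratios were -4.57 for Kif11, -4.24 for Kif23, -3.80 for Kif2c, -3.74 for Kif22 and -3.40 for Kif20a. Without the cells richer in astrocyte markers, 2 stayed higher in culture, and Kif11 and Kif23 turned to 0.03 and 0.45. All 17 measured spindle partners were higher in culture, and without those cells 7 of 14 were, with 3 higher in slices. The axonal transport members were divided evenly, with 2 higher on each side and a median of -0.25, against -0.24 for all genes. That split did not hold under other choices of cells. Within the libraries basecalled with the later of 2 versions of bcl2fastq (the program that writes reads from the base calls), 0 were higher in slices and 4 in culture. With cultured cells of 15 days only the counts were 5 and 1. Among the cultured cells the later version covers only those of 10 and 13 days, so version and culture age cannot be told apart. With the TMM factors of edgeR or the size factors of DESeq2 the medians were 0.01 and 0.07, against -0.07 and -0.05 for all genes. Kif3c was lower in slices (-2.99). Kif5c was higher (1.58) but turned to -0.22 without the highest cell of the list and to -0.46 within the later version. Klc2 was higher (2.40) and turned to -0.81 within those libraries. Of 8 other transport members, 4 were higher in slices, Kif16b by 4.46, and 2 in culture, Kif21b by 2.51 (log2 -2.51). In the slices, 1 cell held 50.9% of the Kif16b counts. Microglia markers differed in the same comparison, with 9 of 10 higher in slices (0.115 to 16510 CPM summed per cell, against 0 to 1865 in culture), and their part in these ratios was not tested.

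Between slice regions, 10 of 10 axonal transport members were measured in each comparison. CA1 had 0 members at least 2-fold higher and 3 lower than cortical slice neurons, against 22.6% and 39.8% of 12666 genes (62.4% in either direction), and the median was -0.91 beside -0.37 for all genes. With DESeq2 size factors these were -0.25 and -0.09, and 2 members were at least 2-fold higher in CA1 and 2 lower. Kif3c was lower in CA1 by -2.28 and Kif5c by -1.06, and within the later basecalling version both turned, to 1.66 and 1.34. Kif13a was at -2.22, with 88.5% of its cortical slice counts in 1 cell, and at 0.63 without the highest cell of its list. Kif2a was at -1.72. Kif9 at 9.35 and Kif15 at 7.81 rest on the single cells given above, and Kif15 was the 1 of 8 measured division kinesins past 2-fold. Of 10 microglia markers 5 were higher in CA1 (0.253 to 19200 CPM summed per cell) and 0 in cortical slices.

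CA3 had 0 axonal transport members at least 2-fold higher and 6 lower than CA1, against 24.8% and 46.2% of 9378 genes (71% in either direction), with a median of -1.35 beside -0.70 for all genes. With DESeq2 size factors these were -0.74 and -0.41, with 1 member higher and 4 lower. Klc1 was lower by -2.44 and Kif5a by -1.28, with 83.3% and 85% of their CA3 counts in 1 cell each. As each CA3 cell was left out, Klc1 ran from -4.78 to -1.79 and Kif5a from -3.33 to -0.82. Kif21b was lower (-4.41), as was Kif9 (-9.44), and Kif22 was higher (6.07). In CA1, 1 cell held 88.8% of the Kif21b counts and 1 cell 87.6% of the Kif9 counts. Kif21a was higher at 1.08 and at -0.28 without CA3 replicate 3. Kif15 and Kif16b had no count in CA3, and with 3 counts for the group taken as the floor they were at least 2092-fold and at least 260-fold higher in CA1, in both cases through 1 CA1 cell. All 10 microglia markers were higher in CA1 (in CA3 0.610 to 311 CPM summed per cell, with C1qa at 0), and the part of this in the ratios was not tested. Of 19 dynein and dynactin genes, 13 were lower in CA3.

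Hippocampal cultures were compared with cortical cultures and with CA1. Against cortical cultures, 1 of 10 axonal transport members was at least 2-fold higher in the hippocampal cells, Klc2 at 4.70, and 0 were lower, against 30.3% and 25.3% of 13485 genes (55.6% in either direction). The median of the list was 0.37 beside 0.15 for all genes, and -0.04 beside -0.11 with TMM factors. Of 10 division kinesins 1 was higher and 6 were lower, with Kif23 at -4.49, Kif11 at -4.32, Kif22 at -3.04 and Kif20a at -2.09. Without the 3 cortical cells richer in astrocyte markers, 1 was lower and 3 were higher, and Kif23, Kif11 and Kif20a turned to 0.16, 0.27 and 1.09. Kif20a also turned to 1.07 within the later basecalling version. Among the cortical cultures that version covers only the cells of 10 and 13 days, so version and culture age cannot be told apart there. Of 14 astrocyte markers 13 were lower in the hippocampal cells. Of 9 other transport members 5 were higher, with Kif16b at 3.33, Kif13a at 2.19 and Kif21a at 1.26. A single cell held 79.4% of the Kif16b counts of the hippocampal cultures. The hippocampal cells were all of 15 days, and with the 3 cortical neurons of that age alone, 2 of them richer in astrocyte markers, 7 axonal transport members were higher in the hippocampal cells and 1 in the cortical ones. Strain and region cannot be told apart in this comparison.

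Strain and source cannot be told apart in the comparison with CA1 slice neurons either, since only the cultures were C57/BL6. Against CA1, 4 of 10 axonal transport members were at least 2-fold higher in the hippocampal cultures and 0 lower, against 51.9% and 18.0% of 12806 genes (69.9% in either direction). Within the later basecalling version 7 were higher in the cultures. The median of the list was 0.75 beside 1.11 for all genes, so the median of the list lay below the general shift. With TMM factors or DESeq2 size factors the general median became 0.36 or 0.29, the split of all genes became 39.7% higher and 28.1% lower or 38.8% and 29.3%, and the list median turned to -0.36 or -0.48. With either factor 4 axonal transport members were at least 2-fold higher in culture and 3 in CA1. Kif3c (5.33), Klc2 (4.28) and Kif1a (2.56) stood above the general shift, as did Kif13a (2.32), Kif21b (1.92) and Kif2a (1.42), and Kif9 was at -8.05. Kif2a fell to 0.32 and 0.20 with the TMM and size factors, below the general median. Of 16 cargo adaptors 10 were higher in culture and 1 in CA1, and of 19 dynein and dynactin genes 10 and 1. All 10 microglia markers were higher in CA1, against 0 to 36.2 CPM summed per cell in the cultures.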

How the data were processed

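Raw counts of reads per gene for 158 libraries were deposited by the authors in 1 table with no normalization. The library kit was TruSeq Stranded, per the labels. Per the submitters' processing notes and labels, base calls were converted with bcl2fastq 1.8.4 or bcl2fastq2 2.17, reads were aligned with STAR and counted with HTSeq, against mm10 (GRCm38). Which strand setting, annotation and versions of STAR and HTSeq were used is not given in the sources used here.

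Libraries were grouped by their labels. The counts of 9 pairs taken to be repeats of a cell were summed (r of 0.945 to 0.999 between log2 CPM), 8 by their titles and 1 recognised from the counts, which left 149 cells. The titles of the last pair give 8 and 4 minutes, which no label explains. Its r was 0.991, and r between unrelated libraries was not computed. It is 1 of the 3 cultured cortical neurons of 15 days, of which 2, not this cell, were richer in astrocyte markers. Counts were summed per group as CPM (Python 3.11.15, pandas 2.3.3, scipy 1.17.1), and log2 ratios used a pseudocount of 1 CPM. Thinning used seed 7. Named members had at least 10 CPM in a group, a ratio at least 2-fold on the log2 scale both from summed CPM and from averaged cell CPM, and a detection difference of the same sign. A fold of 2 counted as a difference. Scaling with edgeR 4.0.16 and DESeq2 1.42.0 served as alternatives, and no count test was run. Gene models for exonic lengths and overlaps were GENCODE on GRCm38. The scripts were checked on simulated counts. The members, lists and comparisons were chosen with earlier results of these data known, and single members outside the rule were named to account for the whole family after their values were seen.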

Additional observations from a re-analysis of the deposited data

Results flagged for a closer look

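Of 23 sets of values tested in the groups of 5 and 8 cells, 5 had a cell far from the others, where chance gives about 1 in 20 for values without ties. In 3 of the 5 all cells but 1 were tied, which makes the gap equal the range whenever a single cell differs, so that rate does not apply to them. All but 1 lay in the cultured hippocampal neurons. The gap to the nearest cell, as a share of the range of log2 (CPM + 1), was 0.818 for Kif2a, with 1 cell at 0 and the other 7 between 71.6 and 188 CPM. It was 0.855 for Kif20a, with 1 cell at 45.6 CPM and the others at most at 1.00 CPM. For Kif23 it was 1.0, with 2.58 CPM in 1 cell and 0 in the other 7. The number of axonal transport kinesins detected per cell also gave 1.0, with 9 in 1 cell and 10 in the others. The low cell for Kif2a, the high cell for Kif23 and the cell with 9 were the same library, and this library and the high one for Kif20a were those whose titles end in D. Among the 5 CA3 neurons, Kif9 gave 1.0, with 1.22 CPM in 1 cell and 0 in the other 4. The critical values were 0.526 for 8 cells and 0.71 for 5.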

How the results depend on the processing

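Members at least 2-fold apart are counts. Shares of all genes past 2-fold were computed only for the main setting and either scaling, so the other counts have none beside them. For division kinesins, astrocytes against cultured cortical neurons (5 and 2 in the report) gave 10 and 0 without the neurons richer in astrocyte markers, 10 and 1 within the later basecalling version and without the highest cell of the list, 8 and 1 with the first library of repeated titles, 0 for neurons with a pseudocount of 5 CPM, and 7 for neurons with cells of 15 days only. The 9 higher in cultured than slice cortical neurons became 2 without the marker-rich cells, 4 within the later version, 3 within the earlier one and 5 without the highest cell. Between cultures, the 6 higher in cortical cells became 1 without the marker-rich cells, and the 1 higher in hippocampal cells became 3 there and within the later version, 2 with the mean over cells, and 0 with either scaling, a pseudocount of 5 CPM, 15 days only or without the D libraries. Against CA1, the 1 higher in hippocampal cultures became 5 with a pseudocount of 0.1 CPM, 2 without a filter, with the mean over cells and within the later version, and 0 with 5 CPM or without the D libraries. The single CA1 member became 0 without its highest cell in all 3 comparisons, within the earlier version against cortical slices, and, against CA3, without the deepest cell or with at least 100 counts. With 0.1 CPM, 3 were higher in cortical slices than in CA1.

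For axonal transport kinesins, the 2 higher in cortical slices than in culture became 4 with the mean over cells and without the deepest cell, 0 within the later version, 5 with 15 days only and 1 without the highest cell. The 2 higher in culture became 1 with either scaling, within the earlier version, without the deepest cell and with 15 days only, and 4 with the mean over cells and within the later version. The 0 higher in CA1 than in cortical slices became 2 with DESeq2 size factors and within the earlier version, 3 within the later version, and 1 with the mean over cells and without the deepest cell. The 0 higher in CA3 than in CA1 became 1 with DESeq2 size factors, within the later version, without the deepest cell and without CA3 replicate 4. Leaving out each CA3 cell gave 0 to 1. Between cultures, the 1 higher in hippocampal cells became 2 with the mean over cells and 7 with 15 days only, and the 0 higher in cortical cells became 1 with either scaling, 15 days only, without the highest cell or without the D libraries. Against CA1, the 4 higher in hippocampal cultures became 7 within the later version, and the 0 higher in CA1 became 3 with either scaling.

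Single ratios turned as given in the report, for Kif5c in slice against cultured cortex (-0.458 within the later version, -0.22 without the highest cell), Klc2 (-0.812), Kif11 (0.0282) and Kif23 (0.448) in the same comparison, Kif3c (1.66), Kif5c (1.34) and Kif13a (0.633) in CA1 against cortex, Kif21a in CA3 against CA1 (-0.28 to 1.74 as each CA3 cell was left out), and Kif11 (0.266), Kif20a (1.09 and 1.07) and Kif23 (0.157) between cultures. Of 815 log2 ratios, 761 kept their direction and moved by less than the standard deviation between cells. That spread is wide, so the number does not measure how firm the ratios are. Among the 761 was Klc1 in CA3 against CA1, at -2.44 and at -4.78 without CA3 replicate 3. The median number detected per cell, with a detection limit of 1 count, rose for division kinesins to 2 in hippocampal cultures, 0.5 in cortical slices and 1 in CA1 and CA3, and for axonal transport kinesins to 8 in astrocytes and 7 in CA1. At full depth it was 2.5 and 1 for division kinesins in hippocampal cultures and CA3, and 8 for axonal transport kinesins in astrocytes. The cause of these changes was not tested. Leaving out the D libraries was added after the data had been seen. The earlier version alone held too few cells for the 4 comparisons other than slice against cultured cortex and CA1 against cortex. Among cultured cortical neurons the earlier version held the cells of 6 and 15 days and the later version those of 10 and 13 days. Of the 3 cells richer in astrocyte markers, 2 were of the earlier version. Choices by version, by culture age and by these markers are therefore not separate checks in that group. No paired analysis was possible because the replicate numbers that groups share follow only the order of the accessions. Depth differs between groups, thinning set it equal for detection only, and shares over 5 cells carry wide intervals.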
